A study of Arabidopsis thaliana with 16 samples.

Results

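Pectin-modifying genes were represented by 3 Arabidopsis genes, each with 1 probe set. They were the polygalacturonase genes AT2G43890 and AT5G14650 and the pectin methylesterase inhibitor gene AT4G25250, out of 21994 genes and unnamed probe sets on the array. Their enzyme classes were assigned by locus code from general knowledge, and the genes had been selected on their hormone changes in these same arrays. AT2G43890 was chosen by its lower level with ethylene in wild type, AT5G14650 by its higher level with IAA in wild type and in ein2, and AT4G25250 by its lower level with IAA in wild type. Those 4 changes, and any comparison that shares arrays with them, are given below as descriptions with no test.

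Root RNA was measured on 16 arrays, in 8 groups of 2. All seedlings grew for 3 days in darkness at 22 °C. Wild-type Col-0 (Col) and the auxin-resistant mutant aux1-7 (aux1, impaired in an auxin influx carrier) received hydrocarbon-free air, without or with 10 ppm ethylene, over 4 h. Col and the ethylene-insensitive mutant ein2-5 (ein2, impaired in a central ethylene signalling protein) were sprayed with 0.01% ethanol (mock) or with 1 µM of the auxin indole-3-acetic acid (IAA) in 0.01% ethanol, and kept in the dark for 4 h. Roots were cut from the hypocotyl before extraction. Both arrays of each group are biological replicates according to the series text. The ethylene and auxin experiments had controls of their own and shared no array.

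Pectin is the acidic polysaccharide of the plant primary cell wall, and its main form, homogalacturonan, is a chain of galacturonic acid laid down with methyl ester groups. Pectin methylesterases remove these groups, and their inhibitor proteins block that step. Polygalacturonases cleave the de-esterified chain by hydrolysis, and pectate lyases cleave it by elimination. These enzymes take part in wall loosening, cell expansion and cell separation, including the parting of root cells over an emerging lateral root. Auxin and ethylene both restrain the elongation of root cells, and ethylene acts in part through auxin made and moved in the root tip.

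Values were background-corrected, normalized expression values on a log2 scale, so that a step of 1 is a doubling, and array number limits their precision. Array medians lay between 5.87 and 6.004, and the 2 arrays of a group correlated at 0.993 to 0.998. The highest lower quartile of any array, 2.55, was used as a mark of near-background signal. Of 12 root marker genes only 1 had a named probe set, the root hair expansin EXPA7, at 7.43 to 10.2 on all arrays, and none of 8 shoot markers had any, so the tissue could be checked only in this narrow way. Changes are differences of group means, each over n = 2 arrays, ± the moderated standard error (SE) of limma. Calls were made where the p adjusted by Benjamini-Hochberg over the 13802 genes and unnamed probe sets tested (all genes, below) was under 0.05. In whole roots, fewer cells that carry a transcript and less transcript per cell cannot be told apart.

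AT2G43890, a polygalacturonase gene, had its lowest group mean in wild-type roots under ethylene, although the arrays of this group overlapped those of Col IAA. Its level was 7.83 and 7.31 in Col air and 3.25 and 2.56 in Col ethylene. In aux1 it was 7.101 and 7.13 in air and 6.67 and 6.76 in ethylene. Both Col ethylene arrays lay far below every other array of the ethylene experiment, while the aux1 ethylene arrays stayed close to the aux1 air arrays without overlapping them. The Col difference, on which the gene was chosen, was -4.66 ± 0.80, a 25.4-fold lower mean. The lower Col ethylene array was next to the near-background mark, so the size of this difference is limited by background.

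The ethylene change of AT2G43890 in aux1 shared no array with the comparison that chose the gene and was tested. It was -0.40 ± 0.80 (adjusted p = 0.866), with a 95% interval from -2.15 to 1.35. This interval is wide, because the spread of the gene was pooled over all groups. The difference between the genotypes was 4.26 ± 1.13 and the aux1 mean under ethylene was 3.81 ± 0.80 above that of Col, while the air means differed by -0.45 ± 0.80. These 3 values rest on the Col arrays that chose the gene and carry no test.

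In the auxin experiment AT2G43890 had lower means with IAA in both genotypes, but the arrays of a group lay far apart. In Col it was 8.07 and 5.68 in mock and 5.62 and 3.14 in IAA. In ein2 it was 7.77 and 7.11 in mock and 6.48 and 5.31 in IAA. The IAA arrays lay below the mock arrays in each genotype, although in Col the lower mock array was nearly level with the higher IAA array. The SD between replicates was 1.69 in Col mock and 1.76 in Col IAA, and in each of the 4 groups the array numbered 1 was the higher.

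Fitted without a replicate block, no IAA comparison of AT2G43890 passed the test. The change was -2.49 ± 0.80 in Col (adjusted p = 0.0924) and -1.54 ± 0.80 in ein2 (adjusted p = 0.422). The Col change was called when Col mock replicate 2 (-3.69, adjusted p = 0.0312) or Col IAA replicate 1 (-3.74, adjusted p = 0.0297) was left out, and it was -1.297 and -1.25 without the other array of each pair. The difference between the genotypes in the IAA change was 0.95 ± 1.13 (adjusted p = 1.00, 95% interval -1.53 to 3.43). The ein2 mean was 0.57 ± 0.80 above that of Col in mock (adjusted p = 0.72) and 1.52 ± 0.80 above it in IAA (adjusted p = 0.34). The latter was 0.27 without Col IAA replicate 2 and 2.76 without Col IAA replicate 1. All these fits ignored the replicate number. When a block for it was added to limma, the Col change (adjusted p = 0.00422) and ein2 against Col in IAA (adjusted p = 0.0394) were called. The ein2 change and the difference between the IAA changes were not. A pairing by replicate number was not established, so the block is given as an alternative.

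AT5G14650, the other polygalacturonase gene, was detected above the near-background mark with IAA and in almost no other condition. It was 6.62 and 7.75 in Col IAA and 6.78 and 7.54 in ein2 IAA. On the other 12 arrays it lay between 2.26 and 2.57, with 11 of them under the mark and the highest in ein2 mock. The gene passed the filter on low values only through the 4 IAA arrays. The differences that chose it were 4.87 ± 0.30 in Col and 4.72 ± 0.30 in ein2. The SE is pooled over all groups, most of them near background with little spread. The SD between replicates was 0.80 in Col IAA and 0.53 in ein2 IAA, so the SE understates the spread of these groups. Counting mock arrays under the mark as if they stood at it, the IAA means were 24.9-fold higher in Col and 24.3-fold higher in ein2. The mark bounds the mock side only, and the spread of the 2 IAA arrays in each genotype is not part of these values.

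The 2 IAA means of AT5G14650 were 7.19 in Col and 7.16 in ein2, and their arrays interleaved. The difference between genotypes was -0.03 ± 0.30 in IAA and 0.12 ± 0.30 in mock, and that of the IAA changes was -0.15 ± 0.43, all given without a test. Where IAA arrays enter, the pooled SE is again smaller than their spread implies. The difference in IAA turned direction with 1 array left out, at -0.59 without Col IAA replicate 1 and 0.54 without Col IAA replicate 2. The gene stayed at background in the ethylene experiment. It was 2.26 and 2.41 in Col air, 2.31 and 2.29 in Col ethylene, 2.33 and 2.41 in aux1 air, and 2.30 and 2.32 in aux1 ethylene. All 8 arrays lay under the mark, so the ethylene differences of -0.04 in Col and -0.06 in aux1 are given without a test, and a fall could not have been seen.

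AT4G25250, the pectin methylesterase inhibitor gene, fell with ethylene in both genotypes and with IAA in ein2. It was 9.46 and 9.73 in Col air and 7.498 and 6.93 in Col ethylene, so that it fell by 2.38 ± 0.21 (5.21-fold, adjusted p = 3.88e-05). In aux1 it was 9.57 and 9.52 in air and 8.92 and 8.59 in ethylene, so that it fell by 0.78 ± 0.21 (1.72-fold, adjusted p = 0.0485). Treated and control arrays did not overlap in either genotype, though 2 arrays against 2 can separate by chance. The share of all genes that separated in this way was not counted. Among all genes tested, 4.80% were called lower with ethylene in Col and 3.79% in aux1. In aux1, AT4G25250 was the 1 called of the 2 members with signal above the mark, and in Col it was the only such member that the choice left to test.

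The call of AT4G25250 in aux1 was close to the threshold. Leaving out 1 array ended it for 12 of the 16 arrays, all but those of Col ethylene and Col IAA, with an adjusted p between 0.0505 and 0.258. It was also lost after median centring (0.0512), with no filter on low values (0.0978), and when the ethylene arrays were fitted without the auxin arrays (0.124). The 5 other settings kept it, with an adjusted p from 0.0184 (replicate block) to 0.0488 (averaged probe sets). Tested directly, the ethylene change in aux1 was 1.597 ± 0.30 above that in Col (3.02-fold), which limma did not call (adjusted p = 0.103), beside 0.145% of genes called in that comparison. Of the other settings, only the replicate block called this difference (adjusted p = 0.0436), and a pairing was not established. The level itself was higher in aux1 than in Col under ethylene, by 1.55 ± 0.21 (2.92-fold, adjusted p = 0.00247), where 1.93% of genes were called. In air the genotypes differed by -0.05 ± 0.21 (adjusted p = 0.988), with a 95% interval from -0.517 to 0.417, and 0.703% of genes were called.

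With IAA, AT4G25250 was 9.44 and 9.22 in Col mock and 7.75 and 7.303 in Col IAA. This difference of -1.80 ± 0.21 (3.48-fold) chose the gene. In ein2, where the change was tested, it was 9.79 and 9.45 in mock and 8.35 and 8.25 in IAA. The ein2 arrays did not overlap either, and the gene fell by 1.31 ± 0.21 (2.49-fold, adjusted p = 0.00522). In that comparison 1.34% of genes were called lower, against 1 of the 2 members tested. The call was lost without ein2 mock replicate 1 (adjusted p = 0.0591). The difference between the IAA changes of the genotypes was 0.48 ± 0.30, and the ein2 mean was 0.29 ± 0.21 above that of Col in mock and 0.77 ± 0.21 above it in IAA, without a test.

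**Figure D1:**
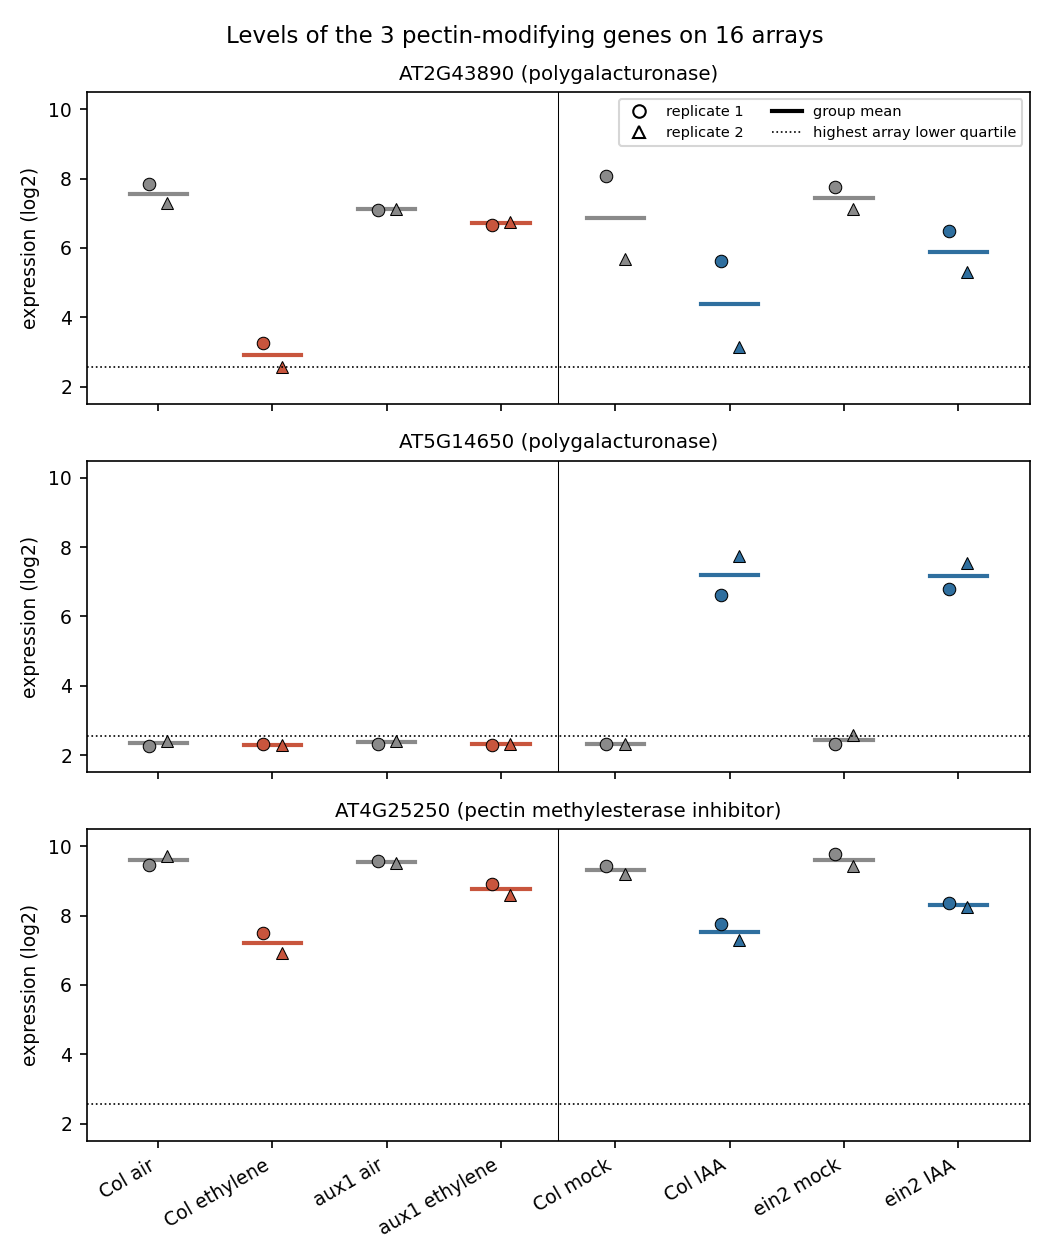
Expression values on a log2 scale (vertical axis) of the 3 genes in the 8 groups, with a circle for replicate 1, a triangle for replicate 2, a bar for the group mean, and a dotted line at the near-background mark of 2.55. AT2G43890 has its lowest mean in Col ethylene, where the arrays overlap those of Col IAA. AT5G14650 stands far above the mark in the IAA groups alone, with ein2 mock replicate 2 (2.57) just over it. AT4G25250 is lower in each of the 4 hormone groups than in its control.

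Ordered by group mean, AT2G43890 went from Col air (7.57) through ein2 mock (7.44), aux1 air (7.12), Col mock (6.87) and aux1 ethylene (6.72) to ein2 IAA (5.897), Col IAA (4.38) and Col ethylene (2.91). Only aux1 ethylene and ein2 IAA were neighbours whose arrays did not overlap. AT5G14650 had 2 tiers, with the IAA groups above and the 6 other groups between 2.44 and 2.302, where each neighbour overlapped the next. AT4G25250 had its 4 untreated groups on top, from ein2 mock (9.62), Col air (9.59) and aux1 air (9.54) to Col mock (9.33). Below them came aux1 ethylene (8.76), ein2 IAA (8.302), Col IAA (7.53) and Col ethylene (7.21). The arrays of ein2 mock, Col air and aux1 air overlapped as neighbours, as did those of Col IAA and Col ethylene, and the other neighbours did not.

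Thus, by group mean, AT2G43890 and AT4G25250 had the same bottom pair, Col ethylene and Col IAA. The means of the aux1 and ein2 hormone groups lay between these and the controls. For AT2G43890 single arrays crossed this order. Col mock replicate 2 (5.68) lay below both aux1 ethylene arrays (6.67 and 6.76), and ein2 IAA replicate 2 (5.31) below Col IAA replicate 1 (5.62). Pearson's r between both genes over the 16 arrays was 0.92, a description of arrays that share treatments and, in part, of genes chosen for a lower level. AT5G14650 gave r of -0.36 with AT2G43890 and of -0.52 with AT4G25250. The within-group SD of AT2G43890, 0.95, was larger than that of 99.7% of the genes tested, whose median was 0.157. It was 0.348 for AT5G14650 and 0.236 for AT4G25250.

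**Figure D2:**
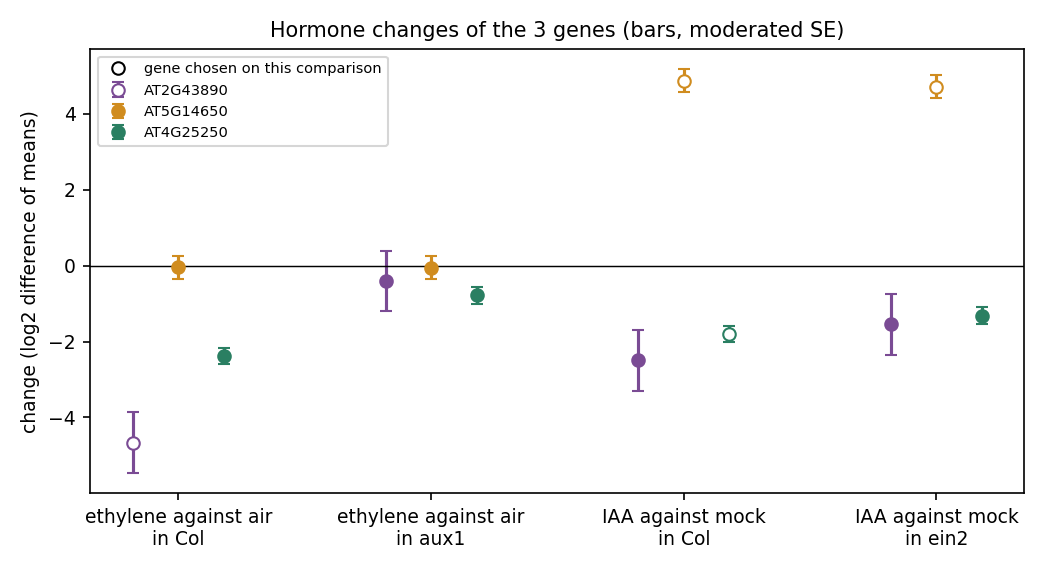
Differences of log2 means between treated and control arrays (vertical axis) for the 3 genes in the 4 hormone comparisons, with bars of 1 moderated SE and open symbols where the gene was chosen on that comparison. AT4G25250 stands at -2.38 with ethylene in Col and at -0.78 in aux1, and AT2G43890 stood at -4.66 and -0.40.

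The other genes of pectin modification were taken from a list of 93 further loci, of which 23 had a named probe set and 12 passed the filter. Loci whose probe sets were unnamed were not analysed here. The 5 listed polygalacturonase genes with a named probe set that did not pass stayed low, with means over all arrays between 2.11 and 2.66. The tested genes of the list were 5 pectate lyases, 4 pectin methylesterases, 2 members of the inhibitor family and the polygalacturonase-type gene AT3G61490. The list was not shown to be complete for any class. AT2G43870 and AT2G43880, neighbours of AT2G43890 described below by position, were tested but not on it, and no class was assigned to them. Counts out of 12 hold for the list alone.

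With ethylene in Col, 4 of these 12 genes fell and 1 rose, beside 4.80% and 4.07% of all genes. The falls were all of pectate lyases, 4 of the 5 tested. AT1G67750 fell by 1.16 ± 0.16 (adjusted p = 0.000755), AT4G24780 changed by -1.06 ± 0.16 and AT5G48900 by -0.78 ± 0.12. The rise was that of the pectin methylesterase gene AT1G02810, by 1.29 ± 0.199 (adjusted p = 0.00172), and a second gene of the list was called higher as well without Col air replicate 1 or without either Col mock array. The methylesterase gene ATPMEPCRB (AT4G02330), at 1.81 ± 0.52, was just short of a call (adjusted p = 0.051). The median change of the 12 genes was -0.18, against 0.03 over all genes.

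With ethylene in aux1, 3 of the 12 genes fell and 1 rose, all of them named above for Col, beside 3.79% and 3.35% of all genes. AT5G48900 fell by 1.22 ± 0.12 (adjusted p = 0.000129), AT4G24780 changed by -1.15 ± 0.16 and AT1G67750 by -0.81 ± 0.16, and AT1G02810 rose by 1.302 ± 0.199 (adjusted p = 0.00188). The call of AT1G67750 was lost without aux1 air replicate 2 (adjusted p = 0.0842) or aux1 ethylene replicate 1 (adjusted p = 0.0569). For none of the 12 genes was the difference between the genotypes in ethylene change called, beside 0.145% of all genes. The smallest adjusted p (limma) was 0.793, with 2 genes at an unadjusted p under 0.05. Between aux1 and Col none was called in air (limma, smallest adjusted p = 0.499, 1 at an unadjusted p under 0.05), beside 0.703% of all genes. In ethylene none was called either (limma, smallest adjusted p = 0.0517, 4 at an unadjusted p under 0.05), beside 1.93% of all genes. With shares this low, the lack of a call among 12 genes does not set them apart from all genes.

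IAA in Col raised 2 of the 12 genes and lowered 3, beside 4.24% and 2.76% of all genes. The pectate lyase gene AT1G67750, lowered by ethylene, rose by 1.87 ± 0.16 (3.62e-05 as adjusted p), from 8.34 and 8.15 in mock to 9.87 and 10.4 in IAA. The inhibitor family gene AT5G62350 also rose, by 1.44 ± 0.21 (adjusted p = 0.00167). AT4G25260, of the same family, changed by -0.91 ± 0.13, the methylesterase gene AT5G53370 (PMEPCRF) by -0.83 ± 0.16 and the pectate lyase gene AT3G07010 by -0.59 ± 0.12, all called lower. The call of AT3G07010 was lost without any of the 4 Col arrays of this experiment. Only 1 fall was left without Col mock replicate 1 or without Col IAA replicate 2.

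In ein2, IAA raised 1 of the 12 genes and lowered 2, beside 1.96% and 1.34% of all genes. AT1G67750 rose by 1.48 ± 0.16 (adjusted p = 0.000275), while AT4G25260 fell by 0.77 ± 0.13 (adjusted p = 0.00757) and AT3G07010 changed by -0.61 ± 0.12 (adjusted p = 0.016). Neither fall was called without ein2 mock replicate 1, ein2 mock replicate 2 or ein2 IAA replicate 1, only 1 was without ein2 IAA replicate 2, and a second rise was called without either aux1 air array. No gene, of the 12 or other, was called for the difference between ein2 and Col in IAA change (0.00% of all genes, with limma, and 622 genes at an unadjusted p under 0.05). With 1 array left out, up to 6 genes were, the most without Col mock replicate 2.

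**Figure D3:**
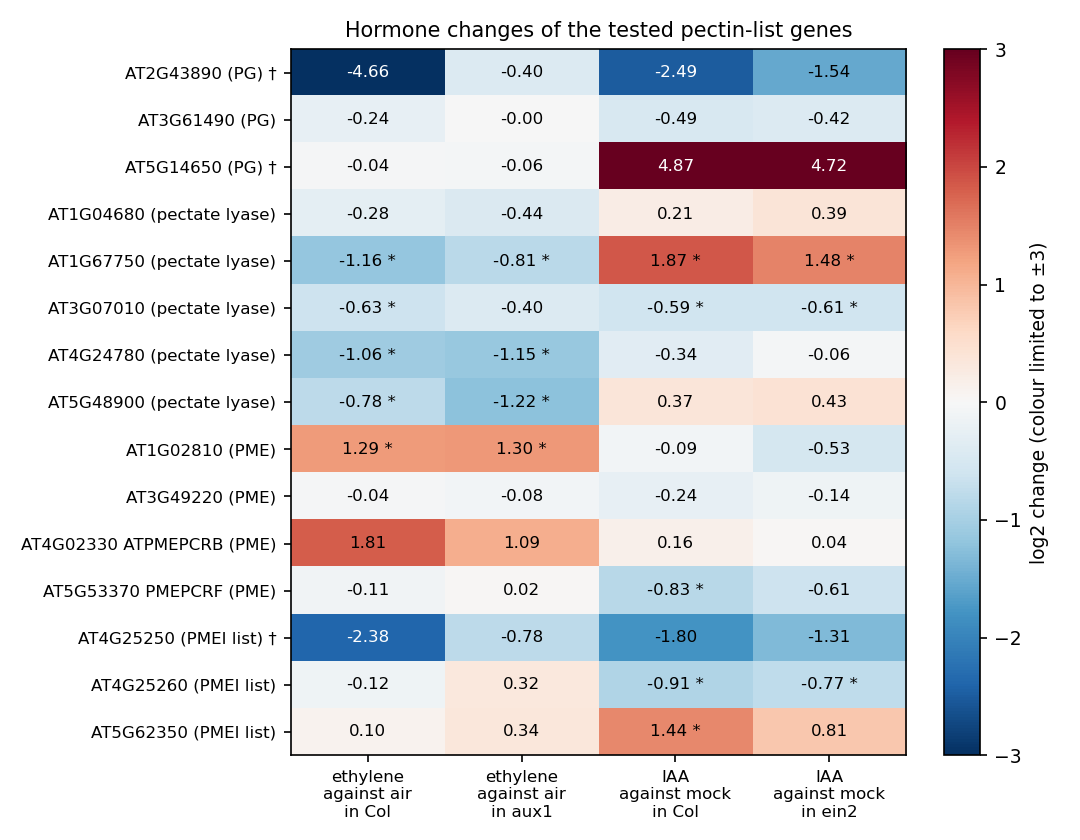
Log2 changes (colour, and the number in each cell) of the 15 tested genes of the pectin list in the 4 hormone comparisons, with an asterisk for calls at an adjusted p under 0.05 and a dagger for the 3 genes chosen on these data, which carry no asterisk. PG stands for polygalacturonases, PME for pectin methylesterases and PMEI list for the inhibitor family. Of the 5 pectate lyases, 4 were called lower with ethylene in Col and 3 in aux1, and AT1G67750 was called higher with IAA in both genotypes.

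Several of these genes differed between ein2 and Col without added hormone, while none was called between aux1 and Col in air. In mock, 5 of the 12 were higher and 1 was lower in ein2 than in Col, where 11.2% of all genes were called. The largest called difference was that of AT5G62350, higher by 1.32 ± 0.21 (adjusted p = 0.00162). The pectate lyases AT1G67750 (0.699 ± 0.16), AT5G48900 (0.57 ± 0.12) and AT1G04680 (0.46 ± 0.13) and the inhibitor family gene AT4G25260 (0.52 ± 0.13) were higher as well, and the methylesterase gene AT3G49220 was lower (-0.86 ± 0.20). The weakest of these calls in mock was that of AT1G04680 (limma, adjusted p = 0.0426). In IAA, 4 were higher and 1 lower, where 7.24% of all genes were called. The calls of list genes between ein2 and Col were not recomputed under other settings or with arrays left out.

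Genes next to the members on the chromosome were looked at by position only, after their values had been seen. AT4G25260, of the same family as AT4G25250, is its immediate neighbour. It stood at -0.12 ± 0.13 with ethylene in Col (adjusted p = 0.699) and at 0.32 in aux1, where AT4G25250 fell, and it fell with IAA in both genotypes. AT2G43880, next to AT2G43890, stood at -0.51 ± 0.15 with ethylene in Col (adjusted p = 0.0641), but it was called lower after quantile normalization (0.0407) and median centring (0.0284). It was called lower with IAA in Col (-0.90, adjusted p = 0.00458), though not without Col mock replicate 1 (0.0548). AT2G43870, the next gene along, moved the other way, rising by 1.83 ± 0.43 with ethylene in Col (adjusted p = 0.021), a call lost without replicate 2 of Col air (0.147) or replicate 1 of Col ethylene (0.165), with no filter (0.0626) and without the auxin arrays (0.0821). PDF1B (AT5G14660), the immediate neighbour of AT5G14650, stood at 0.54 with IAA in Col and was not called (adjusted p = 0.147).

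The genes whose levels ran closest to each member over the 16 arrays were found among 7607 genes with a locus code, by Pearson's r. The values describe arrays that share treatments and carry no test. For AT2G43890 they were AT4G25250 (r = 0.92), the actin gene ACT11 (AT3G12110, r = 0.901) and AT3G59370 (r = 0.88), and 2 genes exceeded 0.9. For AT4G25250 they were ACT11 (r = 0.98), AT1G30690 (r = 0.96) and AT5G10750 (r = 0.96), and 16 genes exceeded 0.9. ACT11 had group means of 8.598 in Col air, 6.86 in Col ethylene, 8.64 in aux1 air and 7.95 in aux1 ethylene. In the auxin experiment it had 8.47 in Col mock, 7.06 in Col IAA, 8.45 in ein2 mock and 7.66 in ein2 IAA. Like AT4G25250, it was lowest in Col ethylene and Col IAA, with the mutant hormone groups next.

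AT5G14650 ran closest to AT3G09280 (r = 0.99, Spearman's rho = 0.85), AT4G26540 (r = 0.99, rho = 0.66) and AT1G22900 (r = 0.99, rho = 0.84), and 40 genes exceeded 0.9. All had their highest means in Col IAA and ein2 IAA. AT3G09280 went from 2.74 in Col mock to 4.79 in Col IAA and from 2.77 to 4.97 in ein2, and AT1G22900 from 1.95 to 6.68 and from 2.01 to 5.87. The r values rest on the step between the 4 IAA arrays and the other 12, and the order of those 12, near background, enters the rank values.

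**Figure D4:**
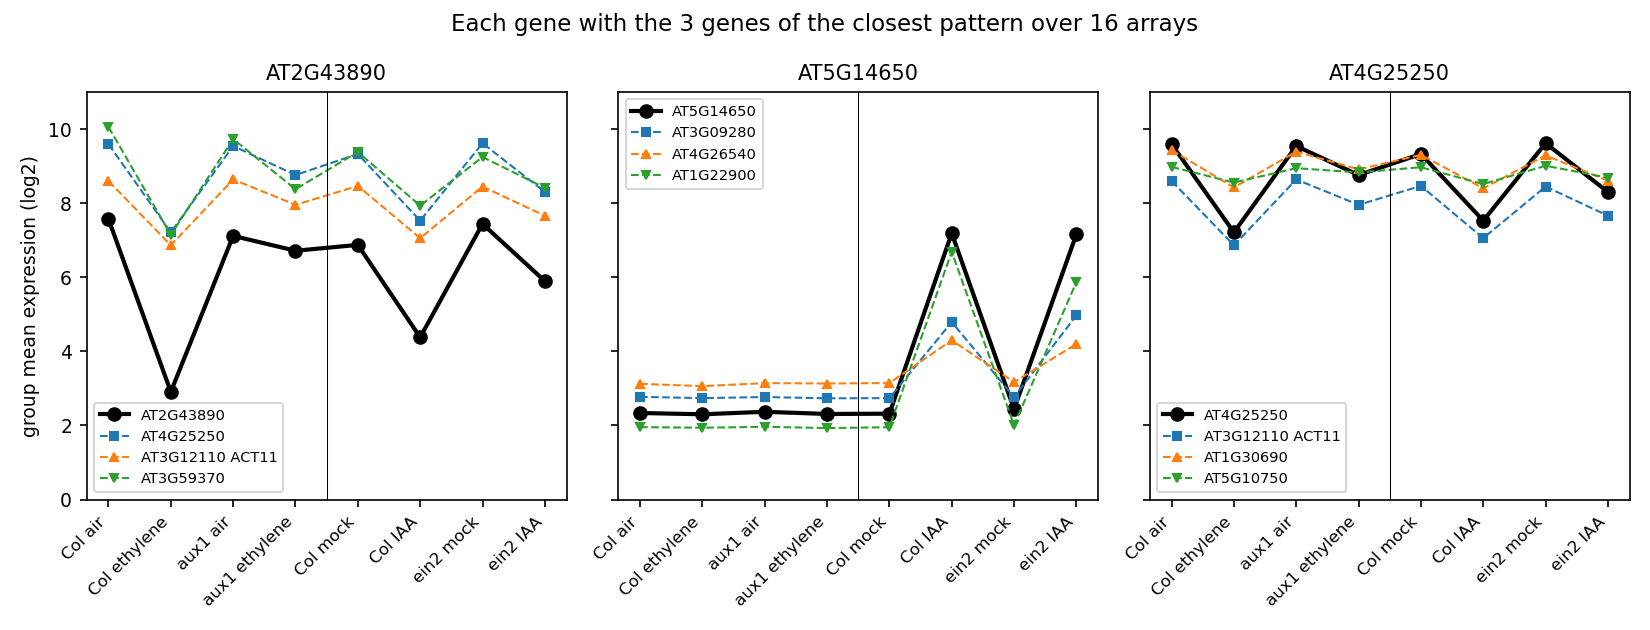
Group means on a log2 scale (vertical axis) of each of the 3 genes (black) and the 3 genes with the highest Pearson's r over the 16 arrays (dashed), with lines that only guide the eye between groups. ACT11 shares with AT4G25250 its low points in Col ethylene and Col IAA, and AT1G22900 shares with AT5G14650 its rise in both IAA groups.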

How the data were processed

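Expression was measured on Affymetrix arrays of 22810 probe sets. The authors deposited log2 values per probe set, made with GCRMA per the submitters' processing notes, and their range (1.24 to 15.4) is that of a log2 scale. The version, settings and arrays normalized together are not given in the sources used here, and GCRMA pulls low signals towards a common floor. Values were used as deposited.

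Probe sets of several genes (503), controls (64) and names without a nuclear locus code (98) were left out. Of several probe sets of a locus the brightest was kept, and 8730 unlisted probe sets stayed as unnamed features. Features above 4 in at least 2 arrays, 13802 in all, were fitted in R 4.3.3 with limma 3.58.1 (a mean per group over 16 arrays, 8 residual and 3.43 prior degrees of freedom, eBayes, two-sided, Benjamini-Hochberg). The fitting code was first tested on simulated data with known changes.

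The members, the pectin list and its classes were chosen with earlier results of these data known. Of 26 list loci with a named probe set, 21 were classed by locus code from general knowledge. The rule for names took, per hormone comparison, the 3 largest called rises and 3 largest called falls of the list with both treated arrays beyond both controls, and the 3 closest patterns per member. Alternatives were quantile normalization, median centring, removal of the filter, a stricter filter (above 6), eBayes with an intensity trend, averaged probe sets, fits within an experiment, a block for replicate number, and omission of each array. A pseudocount was not needed on log2 values.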

Additional observations from a re-analysis of the deposited data

How the results depend on the processing

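Here 30 changes of the 3 members and 8 counts of the list were recomputed under 8 other settings and with each of 16 arrays left out. The labels do not say what a shared replicate number marks, and with 2 numbers a pairing was not established, so the block stayed an alternative. Deviations of same-numbered arrays from their group means correlated at 0.308 to 0.42 between the groups of the ethylene experiment and at 0.082 to 0.386 in the auxin experiment, above 0.1 for 6 of 6 and 4 of 6 pairs of groups, which is a hint of pairing. A replicate block kept all values and added calls for AT2G43890 with IAA in Col (-2.49, adjusted p = 0.00422) and for ein2 against Col in IAA (1.52, 0.0394), and for AT4G25250 in the difference of ethylene changes (1.597, 0.0436). With the block the list had 2 rises with ethylene in Col, 2 rises and 5 falls in aux1, 4 falls with IAA in Col, and 2 rises and 3 falls with IAA in ein2. The ethylene fall of AT4G25250 in aux1 was not called after median centring (-0.77), with no filter or within 1 experiment (-0.78 each). The near-zero genotype difference of AT5G14650 in ethylene change turned to 0.042 after median centring. List rises with ethylene in Col were 2 with a filter at 6, with an intensity trend and within 1 experiment. List rises with IAA in ein2 were 2 with the trend and 3 within 1 experiment. The cause was not tested. Over all genes, the block changed the calls from 985 to 1488 for ethylene in aux1, from 97 to 179 and from 266 to 543 for aux1 against Col in air and ethylene, from 966 to 1581 and from 455 to 741 for IAA in Col and ein2, from 0 to 5 for the difference of IAA changes, and from 1544 to 2368 and from 999 to 1500 for ein2 against Col in mock and IAA. Fits within 1 experiment made 684 ethylene calls in Col in place of 1225, 505 in aux1, 3 in place of 20 for their difference (6 with the filter at 6), and 51 and 94 for aux1 against Col in air and ethylene. With no filter, 3 genes were called for the difference of IAA changes. Leaving out 1 array gave 708 to 1282 calls for ethylene in Col, 521 to 1052 in aux1, 3 (without Col ethylene replicate 1) to 87 (without Col air replicate 2) for their difference, 65 to 193 and 108 to 356 for aux1 against Col in air and ethylene, 409 to 1030 and 199 to 489 for IAA in Col and ein2, 0 to 6 for their difference, and 784 to 1655 and 515 to 1054 for ein2 against Col in mock and IAA.

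With 1 array left out, AT2G43890 ranged from -3.74 to -1.25 for IAA in Col, from -0.29 to 2.19 for the difference of IAA changes, from -0.63 to 1.76 and from 0.27 to 2.76 for ein2 against Col in mock and IAA, and from 3.92 to 4.61 for the difference of ethylene changes. AT5G14650 ranged from -0.11 to 0.039 for ethylene in Col, from -0.097 to 0.052 for the difference of ethylene changes, from -0.043 to 0.11 for aux1 against Col in air, from -0.00092 to 0.019 in ethylene, from -0.72 to 0.41 for the difference of IAA changes, and from -0.0032 to 0.25 and from -0.59 to 0.54 for ein2 against Col in mock and IAA. Its values in the ethylene experiment lie under the near-background mark, so their signs are not read. AT4G25250 ranged from -0.95 to -0.62 for ethylene in aux1, from -0.18 to 0.084 for aux1 against Col in air, from -1.49 to -1.14 for IAA in ein2 and from 0.26 to 0.71 for the difference of IAA changes. A group left with 1 array was assumed to vary like the others. List counts ranged from 1 to 2 rises with ethylene in Col, 1 to 3 falls with IAA in Col, and 1 to 2 rises and 0 to 3 falls with IAA in ein2. AT2G43880 near 0 with ethylene in aux1 (-0.0064) turned to 0.0026 and 0.011 after quantile normalization and median centring, ranging from -0.12 to 0.103, and AT2G43870 ranged from -0.60 to 0.071 with IAA in Col. Signal near background limits AT5G14650 without IAA and AT2G43890 in Col ethylene.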
